A study of Caenorhabditis elegans with 6 samples.

Results

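Transcripts of 8 genes that carry out or control the fusion of synaptic vesicles with the plasma membrane were compared in neuronal nuclei of Caenorhabditis elegans larvae at the L1 stage, the first after hatching. The genes were snb-1, ric-4, unc-64, unc-18, tom-1, snt-1, cpx-1 and nsf-1, chosen by name, with earlier results of these data known. All 8 were found among the 41862 features of the deposited table, and all 8 were among the 17900 genes with a mean of at least 10 normalized counts that were tested. The 3 control libraries came from strain OH16748, labelled wildtype and carrying the integrated transgene otIs790, and the 3 mutant libraries came from strain OH17055, described as null for the 6 CUT homeobox genes ceh-48, ceh-44, ceh-41, ceh-39, ceh-38 and ceh-21. Both strains carry UPN INTACT, a nuclear tag by which nuclei of chosen cells are pulled down, so the nuclei recovered in either group depend on the activity of the UPN driver, which was not measured here. The label of the mutant strain gives UPN INTACT without an allele name, and nothing in the labels says whether replicates were separate cultures, so p-values measure the spread between these libraries.

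A synaptic vesicle fuses when a SNARE protein on the vesicle zips into a helical bundle with SNARE proteins on the plasma membrane. Accessory proteins hold the bundle ready, block it, trigger it when calcium enters the terminal, or take it apart afterwards so that its parts can be used again. In the worm, animals that lack the core SNAREs, UNC-18 or synaptotagmin are impaired in transmitter release, and these genes are used in nearly every neuron. CUT homeobox genes encode transcription factors with a CUT domain beside a homeodomain, and the series title concerns the regulation of pan-neuronal genes.

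Recovered depth was 15500882 to 20844986 reads per library. Of the 6 targeted genes, 5 were lower and ceh-44 was higher in the libraries labelled mutant, each past a limma p of 0.05 after Benjamini-Hochberg (BH) adjustment over all tested genes. Among the libraries with that label, mutant replicate 2 kept more reads of ceh-21 and ceh-39, at 47.95 and 43.9 normalized counts, than replicates 1 and 3, at 0 to 5.06, while controls had 769 to 1098. The other targeted genes kept reads in every mutant library. Their mutant means were 57.8%, 44.2% and 34.1% of control for ceh-38, ceh-48 and ceh-41, and 176% for ceh-44. Whether those transcripts are functional was not tested. Defining markers of other tissues were present, and no muscle, pharynx, intestine, epidermis, germline or glia marker was at 0 in any library. The summed level of 10 body wall muscle markers was 171842 to 199788 normalized counts in controls and 171995 to 214413 in mutants. The summed level of 25 neuron reference genes, none of them among the 8, was 814591 to 1015452 in controls and 387915 to 724135 in mutants, so the groups did not overlap. This list was chosen with its lower level in mutants known, so that separation is no independent result. By log2 difference, 23 of the 25 were lower and 2 higher. The genes unc-44, egl-3 and cla-1 had the most counts of the list in controls and weigh most in its sum. The summed level of the 6 pharynx markers ran the other way, at 22478 to 34746 in controls and 44187 to 54872 in mutants. Most of that sum came from myo-1 and myo-2. The log2 differences of pha-4, ceh-22 and marg-1 were only 0.02 to 0.10. The summed level of the 5 germline markers that were tested was 309 to 459 in controls and 465 to 836 in mutants. Of these 5, 4 went up, while pie-1 went down at −1.57 (BH-adjusted limma p 0.0115). The mean log2 level of the germline list overlapped between groups, at 5.83 to 6.42 in controls and 6.31 to 6.82 in mutants. In such pulled-down fractions, fewer neuronal nuclei and less RNA per nucleus cannot be told apart, and the part of these shifts in the results below was not tested.

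All 8 genes were abundant. By mean normalized count, tom-1 ranked 66 of 17900 tested genes and cpx-1, the lowest of the 8, ranked 858. Each gene was covered by 3024 to 32045 reads in every library, so the spread between libraries and not read counting limits the comparison. Per kilobase of merged exons in the Ensembl annotation of WBcel235, the control levels ran in the order snb-1, tom-1, ric-4, cpx-1, snt-1, unc-64, unc-18 and nsf-1. They went from 7105 ± 1880 normalized counts per kilobase for snb-1 through 4688 ± 830 for snt-1 to 2015 ± 635 for nsf-1 (SD, n = 3 each). The control ranges of all neighbours in this order overlapped. The ends of the order were apart, since nsf-1 reached 2711 per kilobase at most while the lowest value of unc-64, next but one above it, was 3364. In mutants the levels per kilobase were 5385 ± 822 for snb-1 and 1830 ± 327 for nsf-1 (SD, n = 3 each), still the highest and the lowest of the 8 means.

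The vesicle SNARE was examined first. SNB-1, the worm synaptobrevin, sits in the vesicle membrane and supplies its helix to the SNARE bundle. Normalized counts of snb-1 were 6837, 4004 and 6362 in control replicates 1, 2 and 3 and 4957, 3641 and 4438 in mutant replicates 1, 2 and 3. All 3 mutants were below the control mean, but control replicate 2 lay among the mutants and the groups overlapped. The means were 5734 ± 1517 and 4346 ± 663 (SD, n = 3 each), a log2 difference of −0.37 (SE 0.23, BH-adjusted limma p 0.270).

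On the plasma membrane, RIC-4, the SNAP-25 homologue, and UNC-64, the syntaxin, complete the bundle. Normalized counts of ric-4 were 8267, 5941 and 6962 in controls and 5966, 5110 and 4900 in mutants. The highest mutant was just above the lowest control, and the other mutants lay below every control. The log2 difference of ric-4 was −0.40 (SE 0.18, BH-adjusted limma p 0.149), with a 95% interval from −0.80 to 0.01. The syntaxin gene had a mutant mean above the control mean. Normalized counts of unc-64 were 11506, 8636 and 10141 in controls and 14543, 9592 and 10005 in mutants. Mutant replicate 1 held the highest value, while mutant replicates 2 and 3 lay inside the control range. The log2 difference of unc-64 was 0.16 (SE 0.21, BH-adjusted limma p 0.630), and without mutant replicate 1 it was −0.033.

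The values of unc-64 carry a limit of annotation. In the WBcel235 annotation its exons overlap those of set-25, a histone methyltransferase gene on the opposite strand. Normalized counts of set-25 averaged 863 ± 122 over controls and 1294 ± 79.0 over mutants (SD, n = 3 each), and set-25 rose by 0.59 (SE 0.17, BH-adjusted limma p 0.0357). That call was lost on leaving out any library other than control replicate 2 or mutant replicate 1, with adjusted limma p from 0.0586 to 0.133. Strand use is not given in the sources used here, so reads of the overlapping exons cannot be told apart. No annotated gene overlaps snb-1, unc-18, snt-1, cpx-1 or nsf-1. The introns of ric-4 hold the piRNA locus 21ur-13262 on the same strand, with control and mutant means of 248 ± 32.2 and 151 ± 54.5 normalized counts (SD, n = 3 each, BH-adjusted limma p 0.0733).

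UNC-18 and TOM-1 act directly on the SNAREs. UNC-18, the worm Munc18, binds syntaxin and is needed for docking and fusion. Normalized counts of unc-18 were 10927, 5673 and 7383 in controls and 7101, 3585 and 4806 in mutants. It had the lowest mutant level of the 8 relative to control, at 64.6% of the control mean, yet mutant replicate 1 lay above control replicate 2. Its log2 difference amounted to −0.63 (SE 0.29, BH-adjusted limma p 0.154). Between libraries with the same replicate number, the differences of unc-18 were −0.62, −0.66 and −0.62, nearly the same each time. In both groups, replicate 1 had the highest and replicate 2 the lowest value of unc-18. With the replicate number as a block, unc-18 fell by 0.63 (SE 0.13, BH-adjusted limma p 0.00820). Whether libraries of the same number are true pairs was not tested.

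TOM-1, tomosyn, is an inhibitor of release that binds the plasma membrane SNAREs in place of synaptobrevin. Normalized counts of tom-1 were 34896, 31462 and 26635 in controls and 30172, 17284 and 19650 in mutants. Mutant replicates 2 and 3 lay below every control, and mutant replicate 1 lay inside the control range. The difference amounted to −0.50 on the log2 scale (SE 0.24, BH-adjusted limma p 0.172). With the replicate block, tom-1 fell by 0.50 (SE 0.16, BH-adjusted limma p 0.0473), and the same-number differences were −0.21, −0.86 and −0.44. The protein-coding gene ostd-1 lies in tom-1 on the opposite strand without shared exons, and it fell from 626 ± 92.9 to 262 ± 131 normalized counts (SD, n = 3 each, BH-adjusted limma p 0.0152). Its call was lost on leaving out control replicate 2, control replicate 3 or mutant replicate 3, with adjusted limma p of 0.0508, 0.0608 and 0.0636, and under centring on the neuron reference list, where its difference was −0.75 (BH-adjusted limma p 0.229).

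SNT-1 and CPX-1 tie fusion to calcium. SNT-1 is the main synaptotagmin of worm synaptic vesicles and senses calcium. Normalized counts of snt-1 were 10688, 7503 and 8884 in controls and 9683, 8691 and 8618 in mutants, and the mutants lay wholly inside the control range. The means were 9025 ± 1597 and 8997 ± 595 (SD, n = 3 each), a log2 difference of 0.01 with a 95% interval from −0.40 to 0.42 (BH-adjusted limma p 0.978). CPX-1, complexin, binds assembled SNAREs, restrains spontaneous fusion and supports evoked fusion. Normalized counts of cpx-1 were 5330, 3154 and 4169 in controls and 4005, 4617 and 3722 in mutants, again inside the control range. Its log2 difference was −0.01 with a 95% interval from −0.48 to 0.46 (BH-adjusted limma p 0.981). These intervals leave room for changes of about the size seen in snb-1, so they do not show that both genes kept their level.

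NSF-1 is the ATPase that pulls used SNARE bundles apart, in neurons and in other cells. Normalized counts of nsf-1 were 7601, 4111 and 5234 in controls and 6028, 4197 and 5168 in mutants. All mutants lay inside the control range, and the difference amounted to −0.11 on the log2 scale (SE 0.24, BH-adjusted limma p 0.778).

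**Figure D1:**
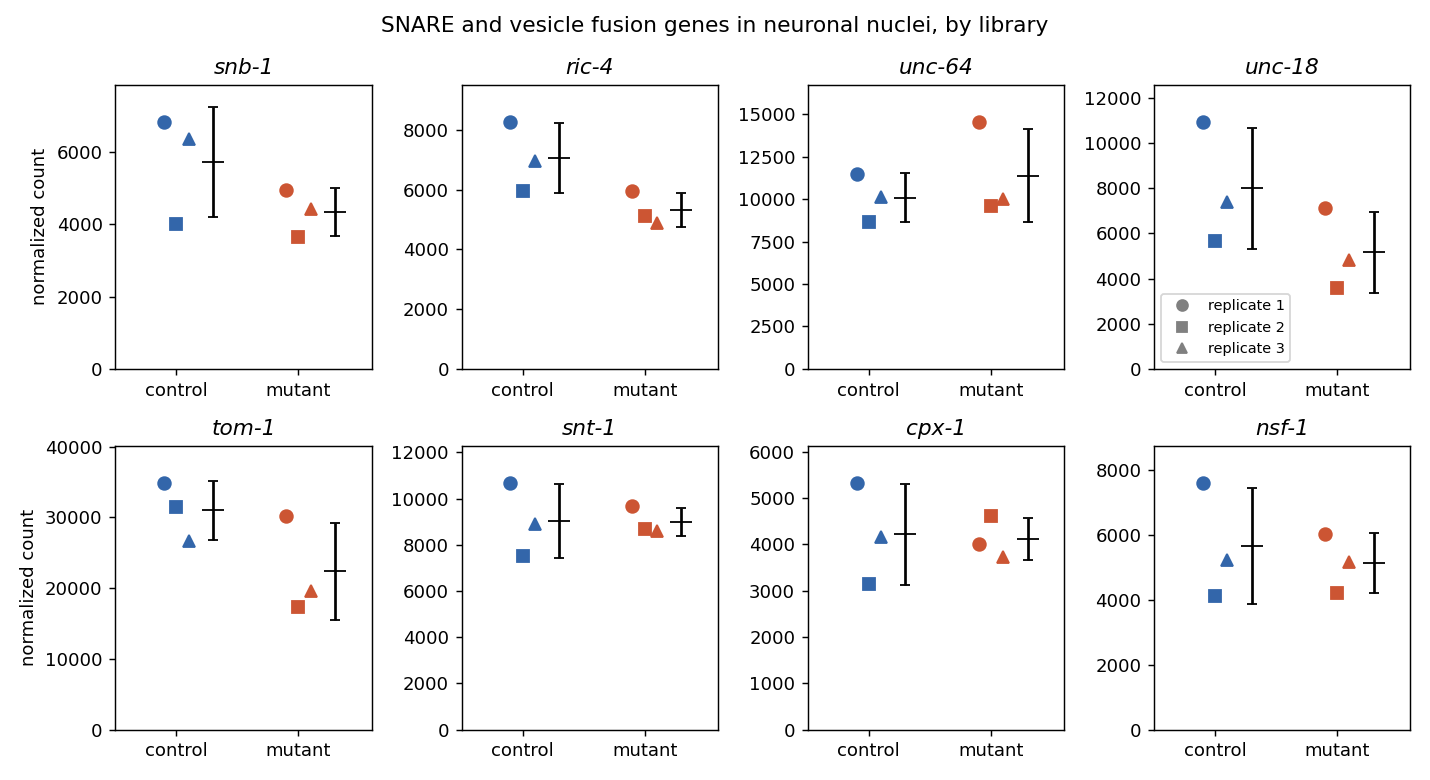
Normalized counts (vertical axes, each from 0) of the 8 genes in 3 control and 3 mutant libraries, with marker shape for the replicate number and the mean ± SD as a black bar. No gene separates the groups completely, and control replicate 1 is the highest control for all 8 genes.

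Over the 8 genes, 6 had a lower and 2 a higher mean log2 value in mutants, where 51.2% of tested genes were lower. Their median log2 difference was −0.24, against −0.02 over all tested genes. None of the 8 passed the limma adjusted threshold in either direction, where 10.5% of tested genes were called lower and 7.56% higher. None had an unadjusted limma p under 0.05, where 34.8% of tested genes had. On recovered reads, edgeR and DESeq2 also called none of the 8, where they called 18.5% and 23.6% of tested genes. The groups overlapped for all 8 genes, while 20.4% of tested genes had every mutant below every control and 19.5% had every mutant above. With the replicate block, 2 of 8 were called lower, unc-18 and tom-1, where 15.2% of tested genes were, and none was called higher, where 11.1% were. Leaving out mutant replicate 1 in the fit with group only led to 2 lower calls of 8, where 14% of tested genes were called lower. These were unc-18 at −0.89 and tom-1 at −0.74 (BH-adjusted limma p 0.0405 and 0.0237). Without mutant replicate 2, the library that kept more reads of 2 targeted genes, none of the 8 was called and their median log2 difference was −0.17.

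**Figure D2:**
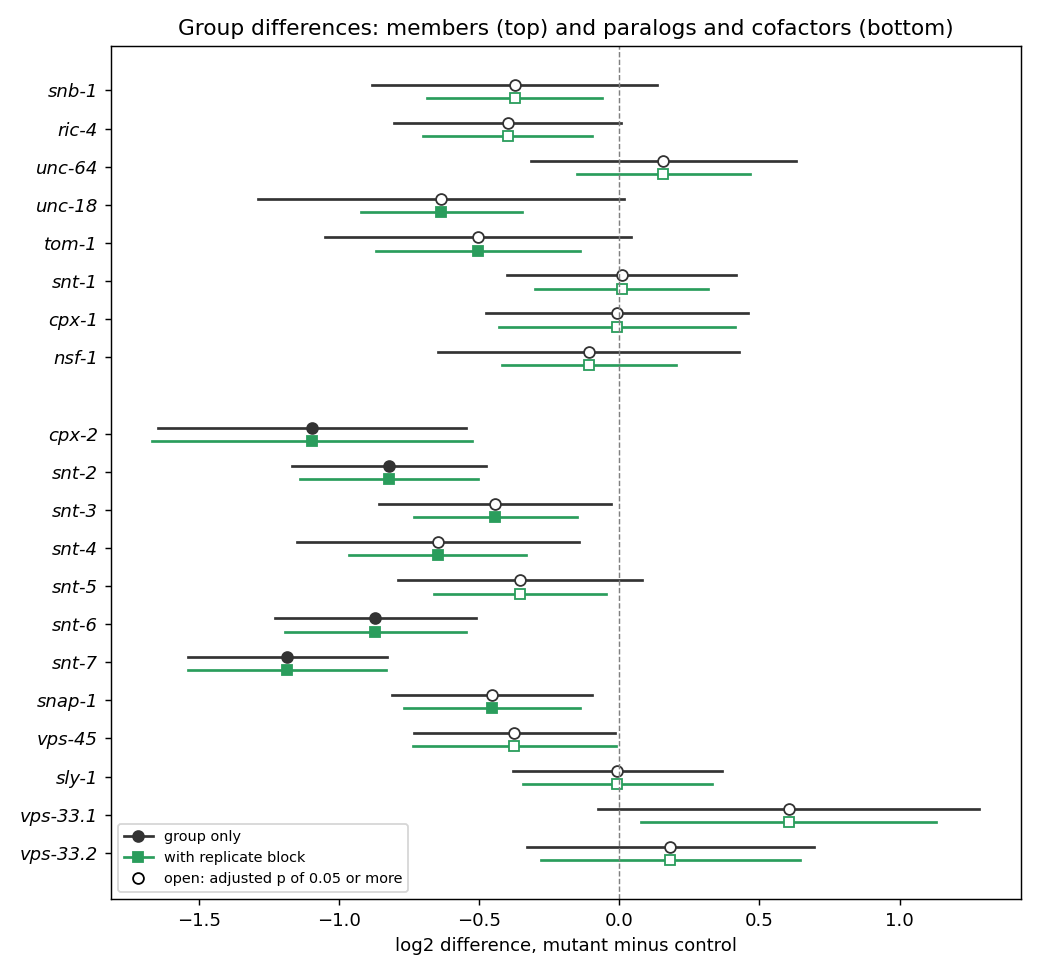
Log2 differences, mutant minus control, with 95% intervals (horizontal axis) for the 8 genes and for 12 paralogs and cofactors, from limma with group only (circles) and with the replicate block (squares), filled where the adjusted p is under 0.05. Among the 8, filled marks appear only for unc-18 and tom-1 with the block, whereas cpx-2, snt-2, snt-6 and snt-7 are filled in both fits.

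Libraries of one group differed from each other in a way the 8 genes shared. Control replicate 1 held the highest control value for 8 of 8 genes, and control replicate 2 held the lowest for 7 of 8. Mutant replicate 1 held the highest mutant value for 7 of 8, the exception being cpx-1, and mutant replicate 2 the lowest for 5 of 8. The neuron reference list had the same extremes, with mean log2 levels of 13.80, 13.50 and 13.55 in control replicates 1, 2 and 3 and 13.41, 12.62 and 13.01 in mutant replicates 1, 2 and 3. The coefficient of variation over controls ran from 13.4% for tom-1 to 33.5% for unc-18, and over mutants from 6.61% for snt-1 to 34.6% for unc-18.

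Each gene was therefore also expressed relative to the mean log2 level of the 25 neuron reference genes in the same library. That list was chosen with its lower level in mutants known, so a rise relative to it is in part, and for snt-1 almost wholly, a restatement of that level. On this scale unc-64 went from −0.31, −0.42 and −0.25 in control replicates 1, 2 and 3 to 0.41, 0.60 and 0.28 in mutant replicates 1, 2 and 3. The groups were apart by a wide gap. The values of snt-1 went from −0.41, −0.62 and −0.44 to −0.17, 0.46 and 0.07 without overlap. Those of unc-18 were −0.38, −1.03 and −0.70 in controls and −0.62, −0.82 and −0.77 in mutants, fully within the control range.

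With all genes of each library centred on that list, unc-64 rose by 0.76 (SE 0.15, BH-adjusted limma p 0.0136) and snt-1 rose by 0.61 (SE 0.19, BH-adjusted limma p 0.0457). These were 2 of the 8 genes, where 19.2% of all tested genes were called higher and 2.14% lower on this scale. With the block as well, unc-64 and snt-1 again passed (BH-adjusted limma p 0.00526 and 0.0232), where 35.2% of tested genes were called higher and 3.97% lower. The centring added the same amount to the difference of every gene. It moved the median tested gene from −0.02 to 0.58, unc-64 from 0.16 to 0.76 and snt-1 from 0.01 to 0.61. The rise of snt-1 is thus almost wholly the lower level of the list. The centred differences were 0.49 for nsf-1 and 0.59 for cpx-1, which did not pass (BH-adjusted limma p 0.0895 and 0.118). For snb-1, ric-4 and tom-1 they were 0.23, 0.20 and 0.10, and for unc-18 −0.03 (BH-adjusted limma p 0.422 to 0.912). No difference of these 4 genes from the reference list was detectable, with 95% intervals that reached from −0.47 to 0.69.

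**Figure D3:**
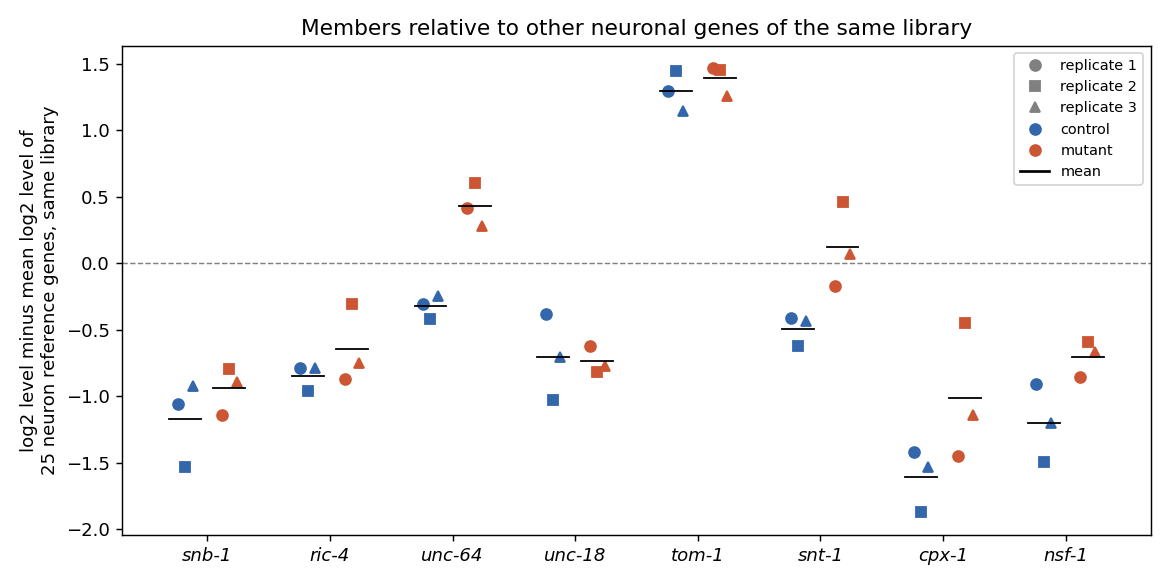
Log2 level of each of the 8 genes minus the mean log2 level of 25 neuron reference genes in the same library (vertical axis), for control and mutant libraries, with marker shape for the replicate number and a line at each mean. The mutant points of unc-64, snt-1 and nsf-1 lie above all control points, and those of unc-18 lie within the control range.

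Ratios between the 8 genes within a library do not depend on how libraries are scaled. Of the 28 ratios, 11 had control and mutant libraries that did not overlap, where 44.3% of the 300 ratios among neuron reference genes did not, so the count is not particular to these genes. By a two-sided exact permutation test each of the 11 gave p = 0.1, the lowest value that 3 against 3 allow, and 0.255 after Benjamini-Hochberg adjustment over the 28, so none passes. The ratios below were chosen after their values were seen.

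The ratio of the largest shift joined syntaxin and its binding partner. There were 1.05, 1.52 and 1.37 unc-64 counts for each unc-18 count in control replicates 1, 2 and 3 and 2.05, 2.68 and 2.08 in mutant replicates 1, 2 and 3. The mean log2 ratio was 0.38 ± 0.27 in controls and, 0.79 higher, 1.17 ± 0.22 in mutants (SD, n = 3 per group), with 3 of 3 mutants above every control, with the exact permutation p of 0.1 given above. The ratios of ric-4 to unc-64 and to snt-1 were among the 11 as well. For each unc-64 count there were 0.719, 0.688 and 0.687 ric-4 counts in controls and 0.410, 0.533 and 0.490 in mutants. For each snt-1 count there were 0.774, 0.792 and 0.784 ric-4 counts in controls and 0.616, 0.588 and 0.569 in mutants. The 3 controls of this last ratio lay within a narrow band, and the mutants lay well below it. The ratio of snb-1 to ric-4 was not among the 11, with 0.827, 0.674 and 0.914 snb-1 counts for each ric-4 count in controls and 0.831, 0.713 and 0.906 in mutants.

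**Figure D4:**
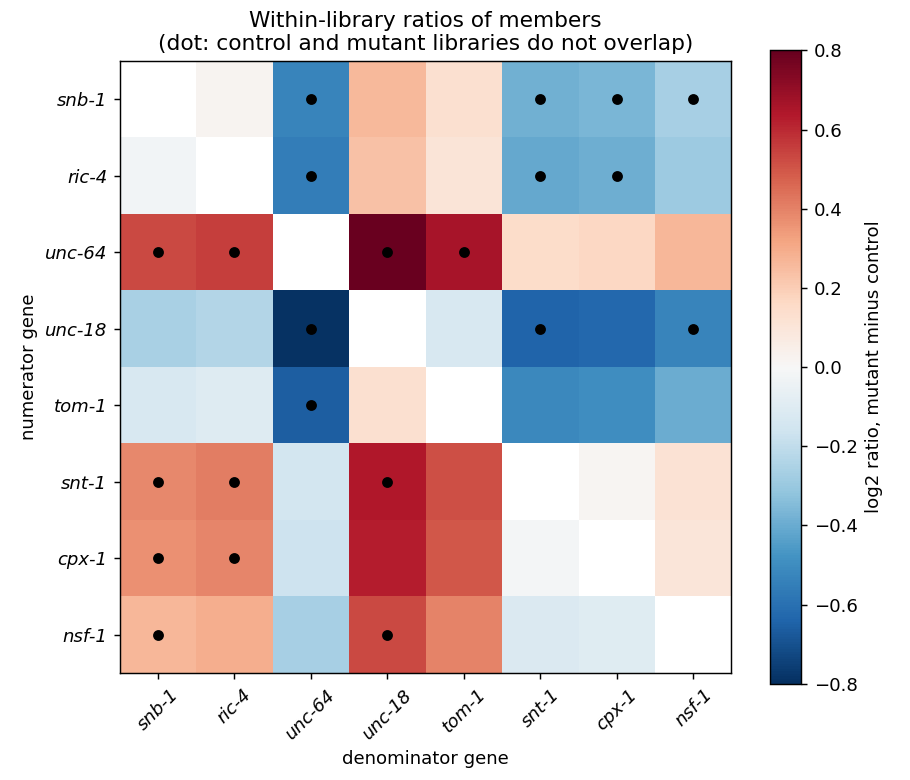
Difference in log2 ratio, mutant minus control, for every ratio of a row gene to a column gene within a library (color scale), with a dot where control and mutant libraries do not overlap. The cells of unc-64 over unc-18 hold the largest difference, 0.79, and the cells of snb-1 over ric-4 are near 0, at 0.02.

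Among paralogs and cofactors of the fusion machinery, some genes passed the test. This list held the other complexin, the synaptotagmins snt-2 to snt-7, the NSF adaptor gene snap-1, and the Sec1/Munc18 family genes vps-45, sly-1, vps-33.1 and vps-33.2. All 12 were tested, 4 were called lower where 10.5% of tested genes were, 0 were called higher, and the median log2 difference was −0.45. In the neuron reference list, chosen with its lower level known, 8 of 25 were called lower and the median was −0.55. Lower calls were thus not particular to the paralogs and cofactors. At an unadjusted p under 0.05, 8 were lower, where 19% of tested genes were, and 0 higher. The edgeR test called 4 lower and DESeq2 called 5, where they called 9.65% and 12.4% of tested genes lower, and both called 0 higher. Complexin paralog cpx-2 fell from 262, 232 and 340 normalized counts in controls to 116, 167 and 107 in mutants, a log2 difference of −1.10 (SE 0.25, BH-adjusted limma p 0.0156). The synaptotagmin snt-7 fell from 909, 966 and 865 to 423, 375 and 406, −1.18 on the log2 scale (SE 0.16, BH-adjusted limma p 0.00149). The other calls were snt-6 and snt-2, with differences of −0.87 and −0.82 (BH-adjusted limma p 0.00636 and 0.00734). All 4 called genes had no overlap between groups, and their differences kept their sign but lost the call when libraries were centred on the neuron reference list, at −0.49, −0.58, −0.27 and −0.22 for cpx-2, snt-7, snt-6 and snt-2. With that centring and the replicate block together, snt-7 was again called (BH-adjusted limma p 0.0387).

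With the replicate block, 7 of the 12 were called lower, where 15.2% of tested genes were, since snt-3, snt-4 and snap-1 joined (BH-adjusted limma p 0.0348, 0.0113 and 0.0408). In the neuron reference list the block gave 16 lower calls of 25. Without mutant replicate 1, vps-33.1, a gene of endosomal and lysosomal fusion, was called higher (BH-adjusted limma p 0.0300). The call of cpx-2 was lost on leaving out control replicate 1, control replicate 3 or mutant replicate 3 (BH-adjusted limma p 0.0513, 0.0652 and 0.0651), and those of snt-2, snt-6 and snt-7 held whichever library was left out. SNAP-1, the worm alpha-SNAP, brings NSF to the used bundle, and snap-1 had 3889, 2981 and 3375 normalized counts in controls and 2494, 2494 and 2444 in mutants. Its partner nsf-1 had a block adjusted p of 0.587 in limma.

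Paralogs were also set against the member of their family in the same library, as a description. Since snt-1 and cpx-1 had log2 differences of 0.01 and −0.01, these ratios largely restate the differences of the paralogs. Counts of cpx-2 were 4.92%, 7.34% and 8.15% of those of cpx-1 in control replicates 1, 2 and 3 and 2.90%, 3.63% and 2.88% in mutant replicates 1, 2 and 3. Counts of snt-7 were 8.51%, 12.9% and 9.74% of those of snt-1 in controls and 4.37%, 4.32% and 4.71% in mutants. Counts of snt-4, the synaptotagmin with the most counts, were 366%, 431% and 506% of those of snt-1 in controls and 286%, 225% and 318% in mutants. In all 7 ratios, cpx-2 to cpx-1 and snt-2 to snt-7 each to snt-1, every mutant was below every control, where 44.3% of the ratios among neuron reference genes had no overlap in either direction. By an exact permutation test, two-sided, each gave p = 0.1, the lowest possible value, and also 0.1 after Benjamini-Hochberg adjustment over the 7. The 6 synaptotagmin ratios share snt-1 as denominator and are not independent of each other.

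**Figure D5:**
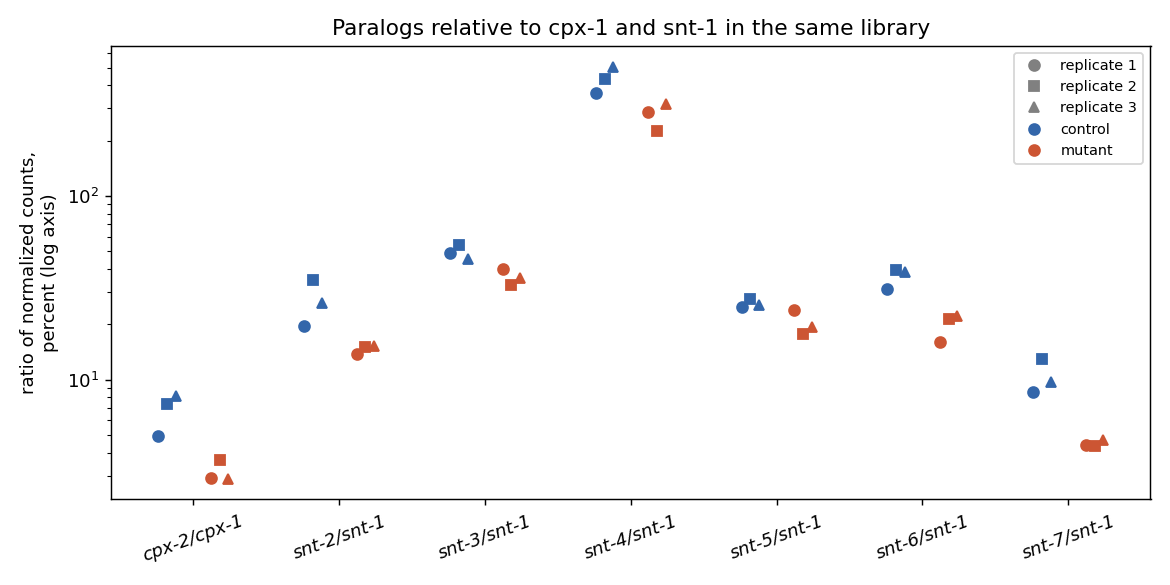
Normalized counts of 7 paralogs as a percentage of those of cpx-1 or snt-1 in the same library (vertical log axis), for 3 control and 3 mutant libraries with marker shape for the replicate number. In each of the 7 ratios all mutant points lie below all control points, with the narrowest gap for snt-5 to snt-1, where the lowest control is 24.8% and the highest mutant 23.8%.

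SNAREs of other membranes showed no common direction on the deposited scale. Of 26 such genes 22 were tested, 11 lower and 11 higher, with a median log2 difference of 0.01. Against the background of 10.5% lower and 7.56% higher calls, 1 was called in each direction. The gene syx-17, whose human homologue is the syntaxin of autophagosomes, rose from 214 ± 28.4 to 376 ± 82.6 normalized counts (SD, n = 3 each, BH-adjusted limma p 0.0304). The gene aex-4, a SNAP-25 relative known from the intestine, fell from 39.7 ± 5.51 to 15.9 ± 3.92 (SD, n = 3 each, BH-adjusted limma p 0.0389). With the replicate block, syx-5, a syntaxin of the Golgi, joined the lower calls (−0.51, BH-adjusted limma p 0.0468). The calls of syx-17 and aex-4 were lost when any library other than mutant replicate 1 was left out, and that of aex-4 also without the filter, under equal totals and under median centring (BH-adjusted limma p 0.0864, 0.0648 and 0.0511). Under centring on the neuron reference list the difference of aex-4 was −0.69 (BH-adjusted limma p 0.240). On that scale 3 of the 22 were called higher, syx-17, syx-18 and gos-28, where 19.2% of tested genes were. With the block as well 8 were called higher, where 35.2% of tested genes were. The 4 genes not tested, syx-4, snb-5, snb-6 and snb-7, had means under 10 normalized counts.

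Genes that bring vesicles to the release site and ready them for fusion were the last group. Of 12 docking and priming genes, 11 were lower, where 51.2% of tested genes were, and 1 was higher, with a median log2 difference of −0.56. The neuron reference list, which shares 7 of these genes, had a median of −0.55. Past the limma threshold, 2 were lower and 0 higher, where 10.5% and 7.56% of tested genes were. At an unadjusted p under 0.05 there were 5 lower and 0 higher, where 19% of tested genes were lower. The called genes were aex-6, the Rab27 gene, at −0.75 (SE 0.17, BH-adjusted limma p 0.0145), and cla-1, which encodes the active zone protein clarinet, at −1.28 (SE 0.32, BH-adjusted limma p 0.0249). The call of cla-1 was lost on leaving out any library other than mutant replicate 1 (BH-adjusted limma p 0.0586 to 0.0907). That of aex-6 was lost without control replicate 1 or mutant replicate 3 (BH-adjusted limma p 0.0677 and 0.0569). Under centring on the neuron reference list, aex-6 lost its call at −0.15 (BH-adjusted limma p 0.626), and rimb-1 was called higher at 0.56 (BH-adjusted limma p 0.0373). The gene cla-1, itself on that list, stayed called at −0.68 (BH-adjusted limma p 0.0129). With the replicate block 7 were lower, where 15.2% of tested genes were. Single libraries were left out in the fit with group only, which called 2 on all libraries. There the count was 0 on leaving out mutant replicate 3 or control replicate 1. It was 1 on leaving out mutant replicate 2 or either of the other controls. On leaving out mutant replicate 1 it was 7, where 14% of tested genes were lower. The priming factor gene unc-13 had a difference of −0.35 that did not pass in either fit (BH-adjusted limma p 0.394 and 0.160 with the block).

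With only the 8 genes left out, the genes with a pattern most like the mean of snb-1, ric-4 and unc-64 over the 6 libraries were sought. The search covered 3086 genes with a mean of at least 1000 normalized counts. After centring each gene on its own mean log2 value, the root-mean-square distance was smallest for arrd-25 (0.0482 log2 units), vha-15, let-60, ncs-2 and sdha-1 (0.0635). None of the 5 passed the limma threshold, with differences of −0.31 to −0.19. On the same measure nsf-1 and snt-1 lay at 0.139 and 0.138 from that mean and unc-18 at 0.299, the farthest of the 8.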

How the data were processed

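RNA of immunoprecipitated neuronal nuclei was sequenced in 3 control and 3 mutant samples, grouped and numbered by title, with libraries from a Tecan kit per the labels. The deposited values are a signal, counts per gene over a DESeq2 size factor of the sample, as computed by the authors, per the table's own name. STAR, featureCounts and DESeq2 are named in the submitters' processing notes without versions. Genome build, annotation, strand use and treatment of shared reads are not given in the sources used here. Ensembl's WBcel235 annotation served for gene lengths and overlaps only, with no coordinates printed. All values were whole multiples of the worth of 1 read (100% within 0.01 reads), 3 reads being 2.44 to 3.79 normalized counts, and no molecular identifiers are named.

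The main test was limma 3.58.1 (R 4.3.3) on log2(normalized count + 1), group as sole factor, variance moderated along a trend, and p-values adjusted by Benjamini-Hochberg over the 17900 genes with a mean of at least 10 (threshold 0.05). This scale understates changes of low genes. The limma fits with and without the block and edgeR were tested on simulated data. Those data had independent libraries and the same variance setting for all genes, simpler than the real data. DESeq2 and the centred fits were not tested in this way. Alternatives comprised pseudocounts of 0.5 and 5, other filters, scalings and thresholds, no variance trend, a replicate block, edgeR 4.0.16 and DESeq2 1.42.0 on recovered reads, and each library left out. The block together with neuron reference centring was chosen after seeing the data. Replicate numbers come from the titles. Across genes, libraries of the same number deviated together from their group means, with correlations of 0.25, 0.20 and 0.15, all over 0.1. The numbers were taken as pairs on that ground, and block values are given where they change a call. Libraries of unlike number were not compared in this way, so whether the numbers mark true pairs was not tested. Without stated dates or batches, no within-batch values could be computed.

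The genes and lists were chosen with earlier results of these data known. Named are all 8 genes, the called genes of the pathway lists (at most 5 by adjusted p), the targeted genes and the 5 of most similar pattern. The genes overlapping the 8, snt-4, snap-1, snt-3 and unc-13 were added after seeing values. A planned search for sequence motifs in promoters was not made.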

Additional observations from a re-analysis of the deposited data

How the results depend on the processing

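The number of the 8 genes called lower was 0 as reported. It was 2 with the replicate block (same-number correlations of 0.25, 0.20 and 0.15), where 15.2% of tested genes were called lower. On leaving out each of the 6 libraries in turn it was 0 to 2. Only the fit without mutant replicate 1 gave 2, where 14% of tested genes were called lower. The number called higher was 0, and it was 2 when libraries were centred on the neuron reference list, with or without the block. The block changed no call of the 8 genes other than those of unc-18 and tom-1. The median log2 difference of the 8 was −0.24, was 0.36 under that centring, and lay between −0.40 and −0.049 with single libraries left out. The cause was not tested, except that the centring removes the lower level of the reference list by construction.

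Signs turned mainly where differences were near 0. Centring on the neuron reference list gave 0.23 for snb-1, 0.20 for ric-4, 0.10 for tom-1, 0.49 for nsf-1 and 0.59 for cpx-1, with the same values under the block. Quantile normalization gave 0.043 for nsf-1 and 0.11 for cpx-1, equal totals gave 0.069 and 0.17, median centring gave 0.051 for cpx-1, and edgeR gave 0.0083 for cpx-1. Equal totals moved the median tested gene to 0.15. With single libraries left out, differences ranged from −0.033 to 0.27 for unc-64, −0.12 to 0.14 for snt-1, −0.31 to 0.13 for nsf-1 and −0.20 to 0.18 for cpx-1. The difference of unc-18 kept its sign in all 19 alternatives run for it, from −0.89 to −0.033.

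Over all genes, 3239 were called, 1107 at an adjusted p of 0.01, 7006 with the block and the centring together, and 1506 to 4117 with single libraries left out. The number of paralogs and cofactors called lower ranged from 3 to 6 in those fits, and 0 were called lower under the centring. Without a variance trend, aex-6, cla-1, syx-17, set-25 and ostd-1 lost their calls, with BH-adjusted limma p of 0.0515 to 0.0898, and set-25 also without the filter (0.0527).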
